A study of Homo sapiens with 4 samples.

Results

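The genes described here are the human metallothioneins MT2A, MT1X, MT1E, MT1F and MT1G, together with SLC30A1 and MTF1, which belong to the same response to zinc. They were chosen by symbol, by a rule that uses no measured value but was written with earlier results of these data known, and make up 7 of the 60725 genes in the count table. Their RNA levels were taken from RNA-seq of RPE1 SunTag cells, a telomerase-immortalized line derived from human retinal pigment epithelium that carries the SunTag system. By the labels, control cells received Silencer Select Negative Control No. 2 siRNA, and TOP2B knockdown cells received a Dharmacon ON-TARGETplus SMARTpool against TOP2B, a type II topoisomerase that also acts in cells that do not divide. Both groups carried the SunTag system, were transfected with 10 nM siRNA, were transfected again 48 h later, and were harvested 72 h after the second transfection, on day 5. Each group had 2 replicates, which the study's methods describe as independent, and the labels do not say whether they came from separate cultures. The comparison rests on 1 cell line, and the loss of TOP2B cannot be told apart from other differences between the control siRNA and the pool.

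Metallothioneins are small cysteine-rich proteins of the cytosol and nucleus that bind zinc and copper and also take up cadmium. Their genes sit side by side in a cluster on chromosome 16, and most are switched on by the zinc-sensing transcription factor MTF1, which binds short DNA words called metal response elements. The same factor drives SLC30A1, which encodes the zinc exporter ZnT1 of the plasma membrane, so metallothioneins and SLC30A1 are commonly read together when cells meet excess zinc.

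The 4 libraries held between 20310259 and 23887013 counts, so that 1 CPM (counts scaled to library size by the TMM method) rested on 20.2 to 23.9 reads. TOP2B itself stood at 154.9 and 143.5 CPM in the control replicates and at 15.3 and 13.3 CPM in the knockdown replicates, which leaves 9.58% of the control level. The epithelial keratins KRT8 and KRT18 were expressed at 266.3 CPM or more in every library, the mesenchymal filament gene VIM at 937.6 CPM or more, and the pigment epithelium regulators MITF and OTX2 at 11.2 CPM or more. RPE65 and TYR, which mark the differentiated pigment epithelium, had 0 counts in every library, and RLBP1, a further such marker, at most 1. BEST1 and PMEL, listed with them, were detected at up to 0.992 and 1.46 CPM, and neither was called. None of the 7 listed markers of other cell types exceeded 3.67 CPM.

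The promoter sequences of MT2A, MT1X and SLC30A1 are shown here because they carry the word through which MTF1 is known to act. They run from 250 bases before to 50 bases after the start of each gene and come from RefSeq (GRCh38.p14), whose table held 4 of the 7 genes. Capitals mark the core of the metal response element, searched as TGCACNC or TGCGCNC on both strands, and no match overlapped another. The MT2A window is chr16:56608334-56608633 and the MT1X window chr16:56682220-56682519, both on the plus strand, and the SLC30A1 window is chr1:211579112-211579411 on the minus strand.
MT2A: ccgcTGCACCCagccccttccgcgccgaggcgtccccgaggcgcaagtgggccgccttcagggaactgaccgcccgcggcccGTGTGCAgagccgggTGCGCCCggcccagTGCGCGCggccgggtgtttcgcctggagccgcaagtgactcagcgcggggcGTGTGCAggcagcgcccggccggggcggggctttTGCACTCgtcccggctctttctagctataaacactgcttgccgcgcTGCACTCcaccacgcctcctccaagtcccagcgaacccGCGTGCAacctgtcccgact
MT1X: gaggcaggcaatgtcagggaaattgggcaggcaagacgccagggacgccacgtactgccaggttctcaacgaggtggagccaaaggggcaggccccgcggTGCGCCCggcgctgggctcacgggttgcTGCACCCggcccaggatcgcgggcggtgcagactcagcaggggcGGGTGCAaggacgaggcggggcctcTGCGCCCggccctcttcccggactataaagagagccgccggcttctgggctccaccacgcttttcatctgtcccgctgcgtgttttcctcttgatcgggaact
SLC30A1: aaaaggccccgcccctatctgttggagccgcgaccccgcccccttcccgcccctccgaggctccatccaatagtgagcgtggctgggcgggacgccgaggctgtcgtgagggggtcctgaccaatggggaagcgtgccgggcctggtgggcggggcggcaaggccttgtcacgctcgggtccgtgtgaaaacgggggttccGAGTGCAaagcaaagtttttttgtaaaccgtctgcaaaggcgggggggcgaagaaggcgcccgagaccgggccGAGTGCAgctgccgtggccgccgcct

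The MT2A window held 8 matches, between positions -246 and 37 from the start. The MT1X window held 4 matches, all within the stretch from -150 to -47. SLC30A1 had 2 matches and MTF1 had 0. Of all 35116 promoter windows of this length, 29.6% held at least 1 match, 7.51% held at least 2, 0.339% held at least 4 and 0.017% held at least 8. A match describes the letters of the window and was not tested as a binding site.

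**Figure D1:**
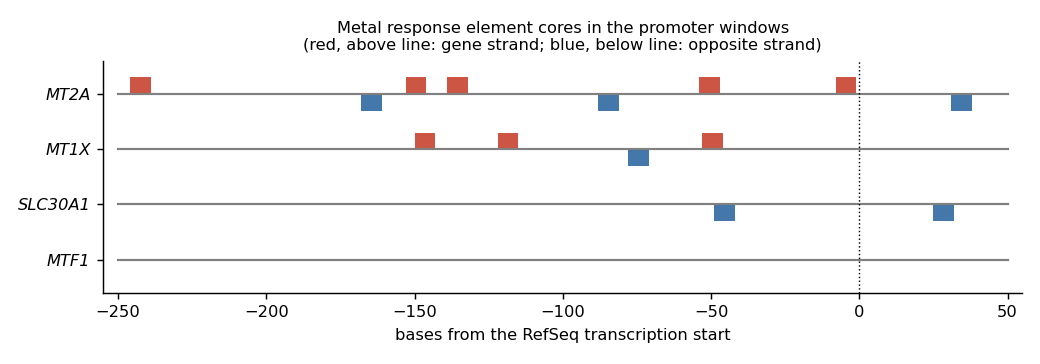
Positions of the metal response element core in the promoter windows of the 4 genes found in the RefSeq table, in bases from the start of the gene (dotted line), with red blocks above the line for the gene strand and blue blocks below it for the opposite strand. MT2A has 8 matches, MT1X 4, SLC30A1 2 and MTF1 0.

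Upon TOP2B depletion, 4 metallothioneins rose and no member fell. MT2A and MT1E, the abundant metallothioneins of these cells, rose by less than 2-fold, whereas MT1X and MT1F, which were scarce in control cells, rose nearly 4-fold. The zinc exporter SLC30A1 and the zinc sensor MTF1 did not pass the test, and MT1G was barely detected. Of the 7 members, 6 had at least 10 counts in at least 2 libraries and were tested, and 4 of them were called higher in edgeR (quasi-likelihood test) at a limit of 0.05 on the adjusted p. Over all 15356 genes tested, 10.8% were called in either direction, 6.66% as higher and 4.18% as lower. The median log2(fold change) of the 6 tested members was 0.80, against -0.0029 over all genes tested. In 5 of the 6 the knockdown libraries did not overlap the control libraries and lay above them, which held for 27.7% of all genes tested, while 54.3% showed no overlap in either direction.

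**Figure D2:**
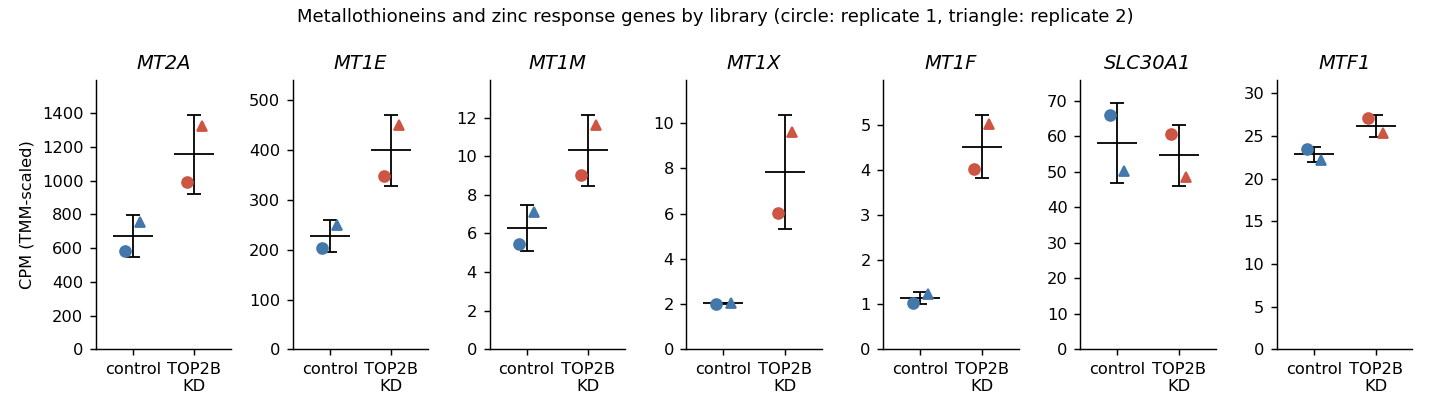
Levels in CPM of the 6 tested members and of MT1M, a further metallothionein of the cluster, with a linear axis from 0 for each gene. Circles stand for replicate 1 and triangles for replicate 2, blue for control and red for TOP2B knockdown (KD), and the bars give the group mean and SD (n = 2). Both knockdown libraries lie above both control libraries for every gene shown except SLC30A1, whose groups overlap.

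MT2A (ENSG00000125148) encodes the main metallothionein of most human cells and lies on chromosome 16 from 56608584 to 56609497 on the plus strand, with 3 exons in the canonical transcript. It was counted 13952 and 17263 times in the control replicates and 20964 and 26625 times in the knockdown replicates. Scaled to library size, these were 582.6 and 757.3 CPM in control and 989.2 and 1320.3 CPM after knockdown. Both knockdown libraries stood above both control libraries, and in each group the second replicate was the higher. The group means were 669.9 ± 123.5 and 1154.7 ± 234.2 CPM (SD, n = 2). MT2A thus rose by a log2(fold change) of 0.79 (SE 0.19, 95% interval 0.35 to 1.22, adjusted p = 0.0304 by edgeR), a 1.72-fold rise. The call was lost without the first control replicate (0.61) and without the second knockdown replicate (0.57). Without the second control replicate the value was 0.99, and without the first knockdown replicate 0.98. The second replicate exceeded the first by 0.38 on the log2 scale in control and by 0.42 after knockdown, and leaving out 1 library unbalances the replicate numbers. With the replicate number entered as a block, MT2A was called at 0.78. In these bulk libraries, more RNA per cell and more cells that express a gene cannot be told apart.

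MT1E (ENSG00000169715) encodes a further metallothionein and lies further along the plus strand, from 56625475 to 56627112. It had 4896 and 5699 counts in control and 7395 and 9071 counts after knockdown, or 204.4 and 250 CPM against 348.9 and 449.8 CPM. The groups did not overlap, and the order of the 4 libraries was that of MT2A. MT1E rose from 227.2 ± 32.2 to 399.4 ± 71.4 CPM (SD, n = 2), a log2(fold change) of 0.81 (SE 0.17, 95% interval 0.44 to 1.19, adjusted p = 0.0143 by edgeR). Without the second knockdown replicate it was 0.63 and no longer called, and with the replicate number entered as a block it was 0.81 and called.

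MT1X (ENSG00000187193), whose promoter is shown above, lies from 56682470 to 56684196 on the plus strand, at the far end of the cluster. It was counted 48 and 47 times in the control replicates and 128 and 194 times in the knockdown replicates. In CPM these were 2.00 and 2.06 against 6.04 and 9.62. The 2 control libraries were nearly equal, and the 2 knockdown libraries, both well above them, differed from each other by 0.66 on the log2 scale. The log2(fold change) was 1.94 (SE 0.27, 95% interval 1.35 to 2.53, adjusted p = 0.00244 by edgeR), which is 3.84-fold with an interval from 2.54 to 5.79. It was called with each library left out in turn, with values from 1.58 to 2.24. Of the exon bases of MT1X, 18.6% are shared with ENSG00000259827, an RNA of the same strand. All exon bases of that RNA are shared with MT1X or DPPA2P4, so its 0 counts in every library do not show whether it was expressed. How many MT1X reads were left uncounted because of the overlap was not tested.

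MT1F (ENSG00000198417) lies from 56657731 to 56660698 on the plus strand. It had 25 and 28 counts in control and 85 and 101 counts after knockdown, or 1.04 and 1.23 CPM against 4.01 and 5.01 CPM. These are small counts, but the lowest knockdown library held over 3 times the reads of the highest control library. MT1F rose by a log2(fold change) of 1.98 (SE 0.27, 95% interval 1.38 to 2.58, adjusted p = 0.00236 by edgeR), which is 3.96-fold with an interval from 2.61 to 6.0. It too was called with each library left out, with values from 1.82 to 2.14.

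MT1G (ENSG00000125144, minus strand, from 56666730 to 56668065) was represented by 0 and 1 counts in control and 0 and 0 counts after knockdown. It was not tested. A count of 0 allows up to 3 counts, or 0.125 to 0.149 CPM depending on the library, which covers counting error only, so that a change of MT1G was not detectable at this depth.

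SLC30A1 (ENSG00000170385, minus strand of chromosome 1 from 211571568 to 211579161) was represented by 1580 and 1145 counts in control and 1286 and 980 counts after knockdown. In CPM it stood at 66.0 and 50.2 against 60.7 and 48.6. The groups overlapped, and in both of them the first replicate was the higher, the opposite of MT2A. The log2(fold change) was -0.09 (SE 0.16, 95% interval -0.45 to 0.27, adjusted p = 0.777 by edgeR), so that the interval leaves room for a rise of up to 0.27 or a fall of up to 0.45. Its sign turned without the first control replicate (0.12) and without the second knockdown replicate (0.07), with no call in either fit.

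MTF1 (ENSG00000188786, chromosome 1 from 37809574 to 37859592 on the minus strand) was counted 562 and 506 times in control and 574 and 511 times after knockdown. In CPM it stood at 23.5 and 22.2 against 27.1 and 25.3. The knockdown libraries lay above the control libraries, but the difference did not pass the test, with a log2(fold change) of 0.20 (SE 0.13, 95% interval -0.09 to 0.48, adjusted p = 0.363 by edgeR). These values are of the MTF1 RNA and hold nothing on the protein, its zinc binding or its place in the cell.

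Of the 17 metallothionein genes and pseudogenes listed beside the members, 16 were in the count table and 2 of these were tested, MT1M and MT2P1. Neither was called by edgeR or by the Wald test of DESeq2, and 1 of the 2 (MT1M) had an unadjusted p below 0.05 in edgeR. MT1M, a metallothionein between MT1E and MT1F in the cluster (56632659 to 56633981), had 130 and 162 counts in control and 191 and 234 counts after knockdown. Its 5.43 and 7.11 CPM in control and 9.01 and 11.6 CPM after knockdown did not overlap. The log2(fold change) was 0.72 (SE 0.20, 95% interval 0.26 to 1.17), with an adjusted p of 0.0503 by edgeR, just outside the limit of 0.05 used here, and with an adjusted p of 0.0465 when protein-coding genes alone were tested. MT2P1 is a processed pseudogene on chromosome 4 (68376323 to 68376505). It had 47 and 73 counts in control and 74 and 78 counts after knockdown, with a log2(fold change) of 0.51 (SE 0.27, adjusted p = 0.272 by edgeR). Among the other 14, no library held more than 3 counts of any gene.

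Summed over all 21 metallothionein genes that the table holds under these symbols, the libraries contained 19099 and 23274 counts in control and 28842 and 36308 counts after knockdown. As a share of all counts this was 0.0800% and 0.102% in control and 0.137% and 0.179% after knockdown. The sum rose from 909.2 ± 158.0 to 1580.7 ± 310.9 CPM (SD, n = 2), a log2 difference of 0.79 against a spread between replicates of 0.38, and was given no test. MT2A supplied 73.1% and 74.2% of it in control and 72.7% and 73.3% after knockdown, and MT1E 25.6% and 24.5% against 25.6% and 25%. The sum is therefore set almost wholly by these 2 genes, whose shares were alike in the 2 groups.

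The minor genes were also counted against MT2A within each library, a ratio that does not depend on the scaling between libraries. For each 1000 reads of MT2A there were 3.44 and 2.72 reads of MT1X in control and 6.11 and 7.29 after knockdown. MT1F had 1.79 and 1.62 reads per 1000 in control and 4.05 and 3.79 after knockdown. Both ratios separated the groups without overlap, but the share of all genes whose ratio to MT2A does so was not counted. In CPM, 54.3% of all genes tested showed no overlap. MT1E, by contrast, had 350.9 and 330.1 reads per 1000 in control and 352.7 and 340.7 after knockdown, and MT1M 9.32 and 9.38 against 9.11 and 8.79. With 2 libraries against 2, an exact two-sided permutation test cannot go below p = 0.333, so none was used to compare these ratios.

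**Figure D3:**
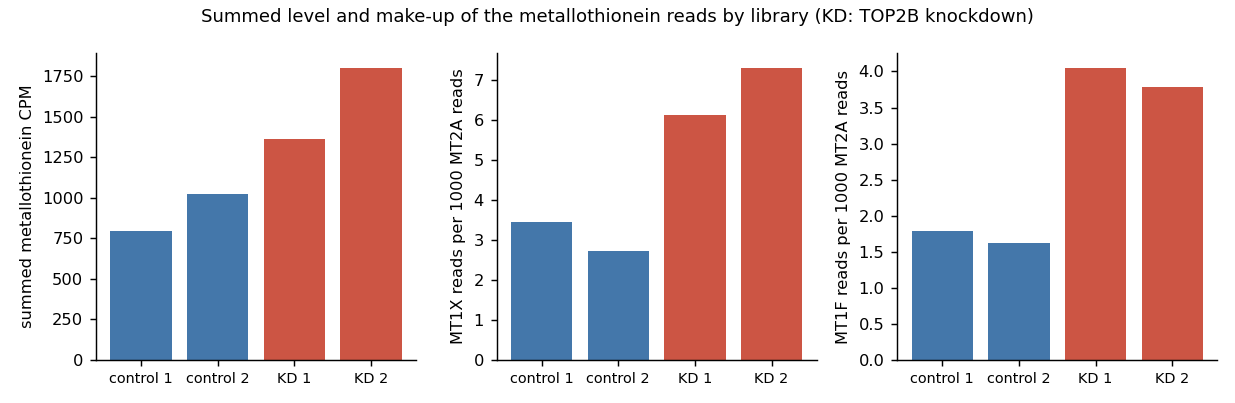
The left panel shows the summed level of the 21 metallothionein genes in CPM, the middle panel the reads of MT1X and the right panel the reads of MT1F for each 1000 reads of MT2A, with 1 bar for each of the 4 libraries (KD, TOP2B knockdown) and linear axes from 0. In all 3 panels both knockdown libraries lie above both control libraries.

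Divided by the length of their exons, the members spanned a wide range of levels. In control cells MT2A stood at 732.9 ± 135.1 CPM per kilobase of exon (SD, n = 2) and MT1E at 216.0 ± 30.6, followed by MT1M at 12.3 ± 2.32 and SLC30A1 at 9.86 ± 1.89. MTF1 followed at 2.86 ± 0.112, then MT1X at 1.18 ± 0.0235 and MT1F at 0.613 ± 0.0704. MT1M and SLC30A1 did not differ beyond their spread, while every other pair of neighbours in this order was further apart than the SDs. After knockdown MT1X reached 4.53 ± 1.47 and MTF1 3.28 ± 0.154 CPM per kilobase, a difference within the spread of MT1X, and MT1F stood at 2.43 ± 0.381. These levels and part of their order depend on the length used, since the annotation adds longer variants to short main transcripts. With the length of the canonical transcript, chosen after the values were seen, the control level was 1670.6 CPM per kilobase for MT2A, 304.6 for MT1E, 15.7 for MT1M and 9.86 for SLC30A1. MT1X then stood at 5.03 in control, above MTF1 at 2.88 and MT1F at 2.67. After knockdown MT1X stood at 19.4 ± 6.27 and MT1F at 10.6 ± 1.66 on this scale, both above MTF1 at 3.30 ± 0.155.

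Metallothionein genes resemble each other closely, which bears on how reads are shared out. The translated coding sequences of MT2A, MT1X and MT1F have 61 residues each, 20 of them cysteines, and MT2A is identical to MT1X at 90.2% and to MT1F at 91.8% of the residues. At the level of a 65-base read the transcripts are more distinct. Of the 65-base windows of each canonical transcript, 98.5% for MT2A, 84.6% for MT1E, 88.8% for MT1X and 97.8% for MT1F occurred nowhere else in the genome or in spliced transcripts. Transcripts of genes that overlap the same place were left out of this search, among them ENSG00000259827 for MT1X. The share for MT1X therefore does not describe reads that the overlap leaves uncounted. No window of MT1X or MT1F was identical to one of MT2A. Allowing 2 mismatches, 75 of the 340 windows of MT1X (22.1%) came near a window of MT2A, as did 0 of the 361 windows of MT1F. The part of misassigned MT2A reads in the MT1X counts was not tested. The canonical transcript of MT1E codes for 127 residues with 14 cysteines, unlike those of MT2A, MT1X and MT1F, so that its share of windows found nowhere else describes this transcript only.

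The metallothionein transcripts are short, and short transcripts differed between the replicates. Among the 66 tested protein-coding genes with a canonical transcript of up to 500 bases, the second replicate exceeded the first by a median of 0.28 on the log2 scale in control and by 0.28 after knockdown. Of the members in this class, MT2A was higher in the second replicate by 0.38 and 0.42 and MT1F by 0.22 and 0.31, while MT1X differed by 0.04 in control and 0.66 after knockdown. For MT1E, with 746 bases in the canonical transcript, the second replicate was higher by 0.29 and 0.37, where genes over 500 and up to 1000 bases had medians of 0.22 and 0.22. That transcript is unlike those of MT2A, MT1X and MT1F, so this class and the level per canonical length given above hold for it only. Genes over 4000 bases had medians of -0.06 and -0.07, MTF1 differed by -0.08 and -0.10, and SLC30A1 differed by -0.39 and -0.32. Between the groups, the median log2(fold change) of these 66 genes was -0.04. Of them, 9.09% were called higher, MT2A, MT1X and MT1F included, and 6.06% lower, beside 6.66% and 4.18% of all genes tested. A fold change as large as that of MT2A was reached by 5 of them (7.58%), with MT2A, MT1X and MT1F among them.

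The 6-base word GCAACC was more frequent in the 3′ UTRs of genes that rose in these libraries, at 39.1% of 942 higher genes, 19.6% of 611 lower genes and 22.2% of 10962 genes that were not called. Among the members it occurred 1 time in the 3′ UTR of MT1X and 2 times in that of MTF1, and it was absent from those of MT2A, MT1E, MT1F, MT1G and SLC30A1. The word was not among the planned results, and the basis on which it was picked is not given here. Had it been picked with earlier results of these data known, as the gene lists were, its share among higher genes could follow from that choice. No other word was counted for comparison, so these shares are a description only. They were not set against the length of the 3′ UTRs, which was 147 bases for MT1X and 5562 for MTF1. The part of the word in these changes was not tested.

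The genes around the cluster were examined next. Of the listed metallothionein genes and pseudogenes, 16 lie on chromosome 16, all of them in the count table, over 119.1 kb from 56565073 to 56684196. Within 500 kb on either side lie 33 other genes, of which 9 were tested. None was called by edgeR, where 10.8% of all genes tested were called, and none by the Wald test of DESeq2. With 9 genes, a count of 0 is near that share. An unadjusted p below 0.05 in edgeR was found for 2 (NUDT21 and CPNE2), with no share over all genes counted for it. The median log2(fold change) of the 9 was 0.10. The most abundant was NUDT21, a factor of mRNA 3′ end processing, at 146.9 and 165.4 CPM in control and 183.1 and 216.6 CPM after knockdown. Its log2(fold change) was 0.36 (SE 0.14, 95% interval 0.05 to 0.66, adjusted p = 0.131 by edgeR), and 45.9% of its exon bases are shared with another annotated gene.

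**Figure D4:**
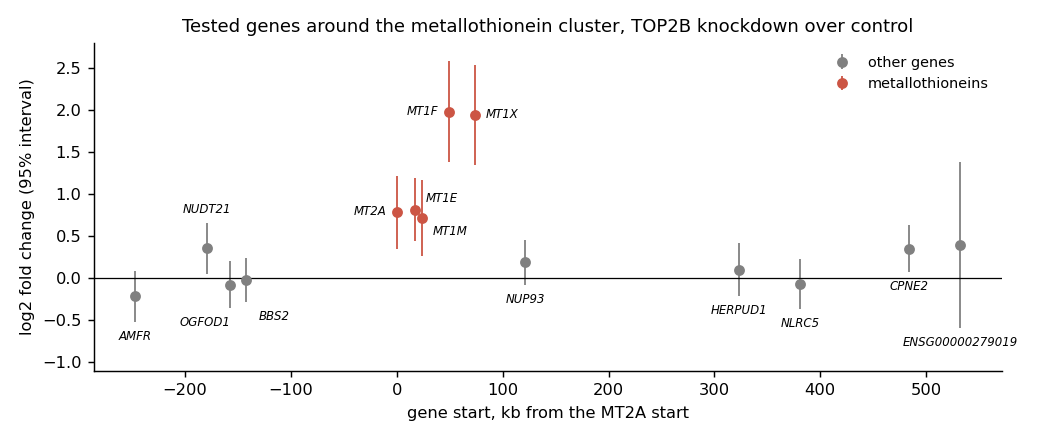
log2(fold change) with 95% intervals for the tested genes within 500 kb of the metallothionein cluster, by the distance of the gene start from that of MT2A in kb, with metallothioneins in red and other genes in grey. MT1F and MT1X lie highest, MT2A, MT1E and MT1M lie between 0.72 and 0.81, and the 9 other genes lie between -0.21 and 0.39.

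Zinc transporters were then examined as the other genes of zinc balance. Of the 9 exporters of the SLC30 family beside SLC30A1, 6 were tested, 1 was called higher and 0 lower, beside 6.66% and 4.18% of all genes tested, and their median log2(fold change) was 0.06. The one called was SLC30A3, known to load zinc into synaptic vesicles, with 1.00 and 1.10 CPM in control and 3.59 and 2.08 CPM after knockdown. Its log2(fold change) was 1.43 (SE 0.34, adjusted p = 0.0255 by edgeR), and the call was lost without the first knockdown replicate (0.99, adjusted p = 0.152 by edgeR). The exporter with the highest mean over the 4 libraries was SLC30A9, with 99.1 and 107.5 CPM in control, 85.9 and 99.8 CPM after knockdown and no call (-0.15, 95% interval -0.44 to 0.13).

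Of the 14 importers of the SLC39 family, 11 were tested, 1 was called higher and 0 lower, beside 6.66% and 4.18% of all genes tested. The median log2(fold change) of the 11 was -0.07. The Wald test of DESeq2 called 1 higher and 1 lower, as did its size factors in edgeR. With no share over all genes counted for it, 3 had an unadjusted p below 0.05 in edgeR. Besides SLC39A8 these were SLC39A1, with a log2(fold change) of -0.46 (adjusted p = 0.0652 by edgeR), and SLC39A11, with -0.56 (adjusted p = 0.0553 by edgeR), both named after their values were seen. SLC39A8, which encodes ZIP8, a carrier of zinc, manganese and cadmium into the cell, stood at 28.1 and 23.5 CPM in control and at 48.5 and 39.6 CPM after knockdown. It rose by a log2(fold change) of 0.77 (SE 0.15, 95% interval 0.44 to 1.10, adjusted p = 0.0107 by edgeR) and was called under every alternative tried, with values from 0.62 to 0.92. The importer with the highest mean over the 4 libraries, SLC39A13, had 230.4 and 206.6 CPM in control and 209.8 and 178.8 CPM after knockdown and was not called (-0.17, 95% interval -0.48 to 0.14).

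**Figure D5:**
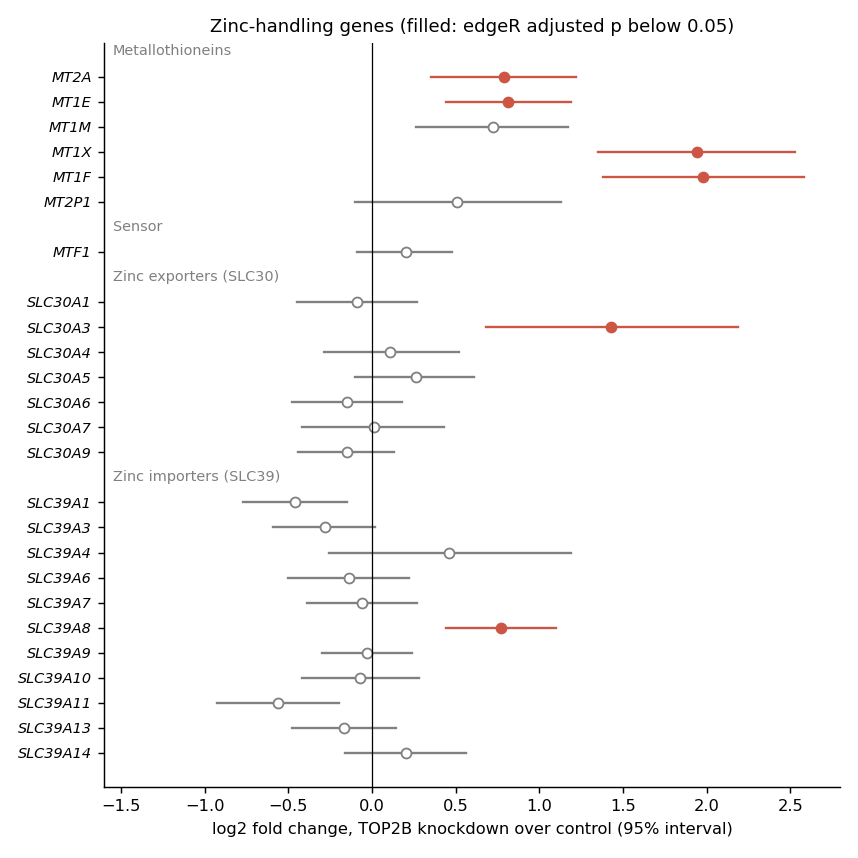
log2(fold change) of TOP2B knockdown over control for the tested metallothioneins, MTF1 and the tested zinc exporters and importers, with 95% intervals, and filled red points for genes called by edgeR. The intervals of MT1X (1.35 to 2.53) and MT1F (1.38 to 2.58) lie above those of MT2A (0.35 to 1.22) and MT1E (0.44 to 1.19), and those of SLC30A1 and MTF1 include 0.

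Genes for the handling of copper and iron were examined beside those of zinc. Of 11 tested genes of copper transport and delivery, 0 were called by edgeR and 0 by the Wald test of DESeq2, where edgeR called 10.8% of all genes tested. Of the 11, 3 had an unadjusted p below 0.05 in edgeR, with no share over all genes counted for it. The median log2(fold change) was -0.06. The most abundant was SOD1, the copper and zinc superoxide dismutase, with 128.9 and 155.5 CPM in control and 116.8 and 141.0 CPM after knockdown. Of 12 tested genes of iron handling, 1 was called higher and 0 lower, with a median of 0.05, where 10.8% of all genes tested were called. This was FTL, the light chain of the iron store ferritin, with 402.1 and 513.8 CPM in control and 638.8 and 895.7 CPM after knockdown. Its log2(fold change) was 0.74 (SE 0.20, adjusted p = 0.0383 by edgeR), and its call was lost without the same 2 libraries as that of MT2A, the first control replicate (0.58) and the second knockdown replicate (0.49), and when genes under a mean of 100 counts were left out (adjusted p = 0.0512 by edgeR).

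FTL was also the gene whose profile over the 4 libraries was nearest to that of MT2A. Among 9486 tested genes that averaged 10 CPM or more, the log2 CPM of FTL, centred on its mean, differed from that of MT2A by a root mean square of 0.0359. It was followed by APOBEC3C, a cytidine deaminase (0.0374), MT1E (0.0382), MRPL45 of the mitochondrial ribosome (0.0389) and NFIX, a transcription factor (0.0636). Of the metallothioneins below that level, MT1M was at 0.0408, MT1X at 0.559 and MT1F at 0.564. These distances describe 4 libraries in which the replicates of a group also differ by transcript length.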

How the data were processed

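The deposited values are whole-number counts of reads on each gene, not normalized. The authors checked single-end 65-bp reads with FastQC 0.11.6, aligned them to GRCh38 with STAR 2.5.4a and counted Gencode v24 genes while mapping. By their names the columns hold stranded paired-end data, and whether counting used strand is not given in the sources used here. The table repeats its 4 columns with the same values, and only the first copy was used.

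A gene needed at least 10 counts in 2 or more libraries to be tested, which 15356 of 60725 had. The test was the quasi-likelihood test of edgeR 4.0.16 (TMM, condition only, two-sided, Benjamini-Hochberg over all genes tested) in R 4.3.3, with calls at an adjusted p below 0.05. The p-values set the difference between the groups against the spread between libraries of a group. With 2 libraries per group, edgeR estimates that spread with information from all genes tested. The share of all genes with an unadjusted p below 0.05 was not counted, so such counts within a list are a description only. Symbols, positions, exons, coding sequences and 3′ UTRs came from GENCODE v44, which held 93.1% of the gene IDs, and promoters from RefSeq. Lengths per kilobase are those of the union of exons. The members and gene lists were chosen with earlier results of these data known. Genes named are all members, TOP2B, the called genes and the most abundant gene of each list, the other tested metallothioneins and the 5 profiles nearest to MT2A. CPNE2, SLC39A1 and SLC39A11 were named after their values were seen.

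Results were recomputed with size factors from DESeq2 1.42.0 in edgeR, library totals without factors, the Wald test of DESeq2, no count filter, a mean of at least 100 counts, the replicate number as a block, protein-coding genes only, and fits without each library, whose lone sample is assumed to vary like the other group. The length of the canonical transcript was added after the data were seen. Scripts were tested on simulated data.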

Additional observations from a re-analysis of the deposited data

How the results depend on the processing

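The rises of MT1X and MT1F kept their direction and call under every alternative that gave a value (a mean of at least 100 counts leaves out MT1F). Without each library in turn, the log2(fold change) of MT2A ranged from 0.57 to 0.99, that of MT1E from 0.63 to 0.99 and that of SLC30A1 from -0.27 to 0.12, positive without control replicate 1 (0.12) and also when knockdown replicate 2 was left out (0.07). The number of members called ranged from 2 to 4. Other metallothioneins called ranged from 0 to 1, exporters from 0 to 1, importers from 1 to 2, copper genes from 0 to 1, iron genes from 0 to 1, heat shock genes from 2 to 2 and glucocorticoid genes from 0 to 2. With the replicate number as a block, 6786 of 15356 genes tested were called against 1665. That fit called 5 members, MT2A (0.78), MT1E (0.81), MT1X (1.93), MT1F (1.98) and MTF1 at 0.20 (adjusted p = 0.0436 by edgeR). Beside the 6786 of 15356, the block called 2 of 2 other metallothioneins, 4 of 6 exporters, 7 of 11 importers and 5 of 11 copper genes. It also called 4 of 12 iron genes, 11 of 15 heat shock genes, 5 of 11 glucocorticoid genes and 4 of 9 neighbours of the cluster. The replicate differences of the 2 groups correlated at 0.479 across genes, but with 2 pairs and no label of a shared batch the numbers were not taken as pairing the samples. Without a count filter, 1 other metallothionein, 3 importers and 1 copper gene were called, and with protein-coding genes only 1 other metallothionein. The size factors of DESeq2 called 2 importers, its Wald test 2 importers (in both, 1 higher and 1 lower) and 2 heat shock genes, and a mean of at least 100 counts called 0 exporters and 0 iron genes. The causes of these shifts were not tested. With 2 libraries per group and 20.2 to 23.9 reads per CPM, the levels of MT1X and MT1F in control rest on 25 to 48 reads per library.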

Other observations

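Heat shock genes, some of which heavy metals also induce, included calls in both directions. All 15 listed genes were tested, and 1 was called higher and 3 lower by edgeR, beside 6.66% and 4.18% of all genes tested, and the median log2(fold change) was -0.22 against -0.0029 over all genes tested. HSPB1, the small heat shock protein HSP27, rose from 138.2 and 163.8 CPM in control to 289.0 and 366.3 CPM after knockdown, with a log2(fold change) of 1.12 (SE 0.16, adjusted p = 0.00278 by edgeR), and was called under every alternative tried. The inducible chaperone gene HSPA1B fell from 54.2 and 43.6 CPM to 34.7 and 27.0 CPM (-0.66, adjusted p = 0.0266 by edgeR), and its call was lost without the first control replicate (-0.50) and without the second knockdown replicate (-0.49). Its near-identical copy HSPA1A fell from 16.2 and 15.7 CPM to 11.1 and 10.8 CPM (-0.55, adjusted p = 0.0402 by edgeR), and was called neither with any of the 4 libraries left out nor by the Wald test of DESeq2. How reads were split between these copies is uncertain. CRYAB, a small heat shock protein of the lens and muscle, fell from 2.05 and 3.11 CPM to 0.802 and 1.29 CPM (-1.30, adjusted p = 0.0423 by edgeR), and its call was lost without the second control replicate (-0.96) and without the first knockdown replicate (-0.99), as well as by the Wald test of DESeq2. The most abundant gene of the list, HSPA8, had 2197.7 and 2118.4 CPM in control and 2356.1 and 2392.3 CPM after knockdown and was not called (0.14, 95% interval -0.23 to 0.50).

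Glucocorticoids are a further known inducer of MT2A. Of 11 tested genes of the glucocorticoid receptor and its targets, 0 were called by edgeR and 0 by the Wald test of DESeq2. Over all genes tested, edgeR called 10.8%, so that a count of 0 among 11 is near that share. Of the 11, 3 had an unadjusted p below 0.05 in edgeR, all of them higher, and the median log2(fold change) was 0.09. The share of all genes with such an unadjusted p was not counted, so the 3 are not a result about these genes. A part of glucocorticoids was not tested. The receptor NR3C1, with the highest mean of them over the 4 libraries, stood at 136.3 and 131.8 CPM in control and at 140.7 and 136.1 CPM after knockdown (0.05, 95% interval -0.22 to 0.31).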
